A study of Mus musculus with 6 samples.

Results

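The genes described here carry out the joining of myoblasts into muscle fibres: the fusion proteins Mymk and Mymx, the adhesion proteins Cdh2, Cdh15, Cdon, Jam2 and Jam3, the muscle caveolin Cav3, and the membrane-fusing ferlins Myof and Dysf. They are a set of 10 genes named for their function, found by NCBI gene number in the deposited table, and all 10 were present among its 17558 genes. All 10 also passed the filter on low counts. Their RNA was measured by sequencing in C2C12 cells, an immortalized mouse myoblast line, in 3 groups of 2 libraries. Every group stably carried a short hairpin RNA and was harvested after 48 h in differentiation medium with 2% horse serum. The control group (shScr, genotype given as wild type) carried a scrambled hairpin with no target. The other groups carried a hairpin against the Pkm1 isoform (shPkm1) or the Pkm2 isoform (shPkm2) of the pyruvate kinase gene Pkm. Cells without a hairpin and undifferentiated cells were not analysed here. The labels do not say whether a hairpin line was 1 clone or a pool, or whether the libraries of a group came from separate cultures, so p-values measure only the spread between these libraries.

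Myoblasts that have left the cell cycle first recognize and hold each other through cadherins, junctional adhesion molecules and receptors such as Cdon. Their membranes then merge through the joint action of Mymk (myomaker), a multi-pass membrane protein, and Mymx (myomixer), a short membrane peptide. Caveolin-3 shapes caveolae in the membrane of the new fibre, and the ferlins are calcium-binding membrane proteins, myoferlin known from fusing myoblasts and dysferlin from the resealing of torn fibre membranes.

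The libraries held between 18216896 and 19796036 estimated counts, and log2 values of replicates correlated across genes at r = 0.988 to 0.994. The Pkm1 isoform was at 546 and 589 TPM (a level scaled to transcript length and library size) in shScr, 243 and 218 in shPkm1, and 254 and 254 in shPkm2. The Pkm2 isoform was at 1073 and 1517, 1278 and 1379, and 2699.7 and 2629.5 TPM in the same order. It was not lower in the group whose hairpin names it, so that group is called the shPkm2-labelled libraries. Desmin (Des), a muscle filament protein, marked the cells as myogenic in every library, from 681 to 2322 TPM. The 6 myogenic markers, of which Cdh15 is also one of the 10 genes, summed to 4996 and 5097 TPM in shScr, 3986 and 4146 in shPkm1, and 1157 and 1074 in the shPkm2-labelled libraries. Of 5 fibroblast markers, Thy1 and Tcf21 were at 0.05 TPM or less in every library, while Col1a1, a collagen that other mesenchymal cells also make, took the list's sum from 373 and 385 TPM in shScr to 2640.3 and 2599 in shPkm1 and 70.4 and 63.9 in the shPkm2-labelled libraries. Pdgfra, another marker of that list, was instead highest in the last group, at 1.02 and 1.61 TPM in shScr, 8.44 and 8.34 in shPkm1, and 10.2 and 9.47 in the shPkm2-labelled libraries. Markers of endothelial and epithelial cells summed to at most 0.62 TPM. In bulk RNA, fewer cells of a type and less RNA per cell cannot be told apart, and the part of these marker shifts in the results below was not tested.

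After scaling of the counts, more of the fusion and adhesion genes fell than rose, and the steepest falls were in the shPkm2-labelled libraries. Against shScr, 6 of 10 genes were lower and 2 higher in shPkm1 by edgeR's quasi-likelihood test (adjusted p under 0.05), where 63.1% of all 12643 tested genes changed, 31.4% downward and 31.8% upward. In the shPkm2-labelled libraries, 7 were lower and 1 was higher than in shScr, against 68.0% of all genes changed, 34.2% downward and 33.9% upward. With library totals these counts were 6 lower and 4 higher in shPkm1 and 6 lower and 3 higher in the shPkm2-labelled libraries, and with limma on TPM they were 5 and 4, and 6 and 3. The direct comparison of these groups placed 6 lower and 2 higher in the shPkm2-labelled libraries, with 53.0% of all genes changed, 27.3% downward and 25.7% upward. The 2 higher became 0 without shPkm1 library 1, shPkm1 library 2 or shPkm2 library 1, and 1 without shPkm2 library 2, and the 2 higher in shPkm1 against shScr became 1 without either shPkm1 library and 3 without control library 2. The share called in either direction, 8 of 10 each time, thus stands beside a high background, while the share lower was above that of all genes in this fit. The 10 genes were chosen with earlier results of these data known, so this excess only describes them and was not tested. Falls of at least 2-fold were seen in 4, 6 and 4 of the 10 genes in the 3 comparisons, against 9.41%, 13.7% and 11.5% of all genes. Rises of at least 2-fold were seen in 0 of the 10 each time, against 12.6%, 14.1% and 7.07%. The libraries of the groups compared did not overlap in scaled counts for 9, 9 and 10 of the genes, against 81.0%, 83.9% and 79.8% of all genes. The median log2 fold change of the 10 genes was -0.72, -1.74 and -0.61 in these comparisons, beside medians of all genes between -0.0001 and 0.0074. The first 2 comparisons share the control libraries. Summed over the 10 genes, TPM was 3675 and 3653 in shScr, 2098 and 2060 in shPkm1, and 464 and 424 in the shPkm2-labelled libraries, a sum that is mostly Mymk in the first 2 groups.

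**Figure D1:**
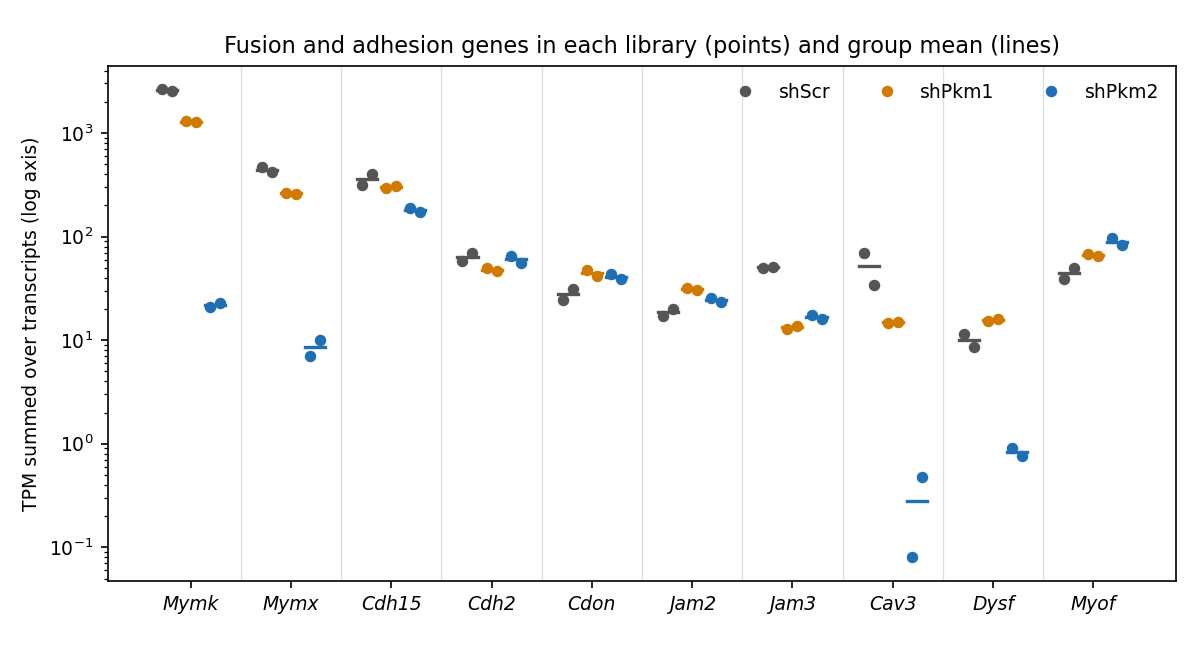
TPM of the 10 genes in each library on a log axis; points are libraries (2 per group), lines are group means, and colours are the groups. Mymk has a mean of 2598 TPM in shScr, 1285 in shPkm1 and 21.8 in the shPkm2-labelled libraries. Cdon, Jam2 and Myof lie higher in both hairpin groups in TPM. In scaled counts, Jam2 was not higher and Cdon overlapped shScr in the shPkm2-labelled libraries, and Myof was not called in shPkm1.

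Fold changes depend on how libraries were scaled. The test scales them by the trimmed mean of M values, which sets most genes to no change. With library totals alone, the median gene shifted upward by 0.19, 0.33 and 0.13 (log2) in the 3 comparisons, and the share of called genes that were higher went from 50.3% to 65.8%, from 49.8% to 69.3% and from 48.4% to 61.3%. Falls of the size seen for Mymk, Mymx, Jam3 and Cav3 kept their call on every scale, whereas small changes of Cdh2, Cdh15, Cdon, Jam2, Myof and Dysf are given below with the scale they rest on.

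**Figure D2:**
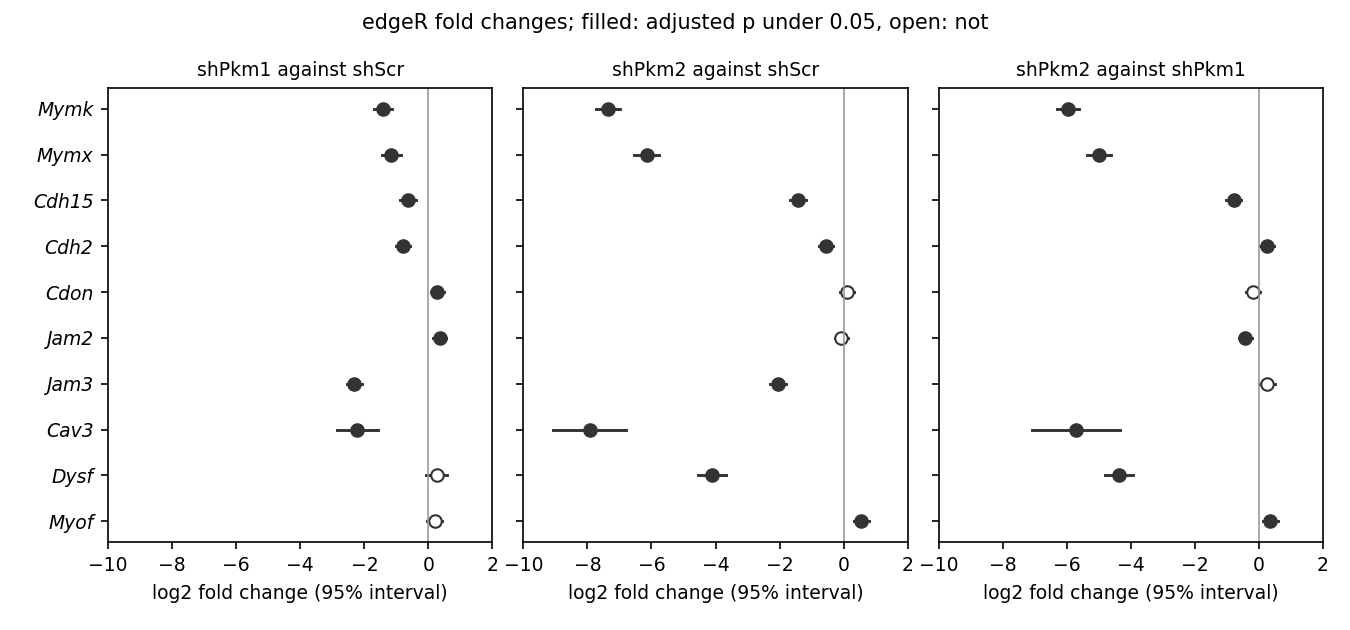
Log2 fold changes of the 10 genes with 95% intervals in the 3 comparisons; filled points pass the edgeR threshold of 0.05 on the adjusted p. Mymk, Mymx, Cav3 and Dysf lie between -8 and -4 in the shPkm2-labelled libraries against shScr, and the other 6 genes between -2.05 and 0.55.

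RNAs of the fusion proteins Mymk and Mymx were the most abundant of the set in control cells and were far lower, but still counted, in the shPkm2-labelled libraries. Mymk (chromosome 2, 27061636 to 27072161, minus strand, GRCm38.p6) was at 2629.9 and 2565 TPM in shScr, 1304 and 1265 in shPkm1, and 20.7 and 22.9 in the shPkm2-labelled libraries. The 3 groups did not overlap, and replicates were close together. Mymk changed by a log2 fold of -1.41 in shPkm1 (SE 0.126, adjusted p 7.75e-07) and by -7.36 in the shPkm2-labelled libraries (SE 0.168, adjusted p 3.66e-12). Between the hairpin groups it was -5.95 (SE 0.158, adjusted p 1.62e-11). Of all genes tested, 0.554% had a lower fold change than Mymk in the shPkm2-labelled libraries, and 5.88% in shPkm1. The transcript NM_025376.3 took all of its counts in 5 libraries and nearly all in the first shPkm1 library, where the other annotated form held 25.1 of 17244 counts.

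Mymx (chromosome 17, 45600961 to 45602196, minus strand), the partner of Mymk in opening the fusion pore, was at 464 and 419 TPM in shScr, 261 and 259.9 in shPkm1, and 7.04 and 10.1 in the shPkm2-labelled libraries. The order of groups was that of Mymk, again without overlap. Its log2 fold change was -1.16 in shPkm1 (SE 0.132, adjusted p 6.88e-06), -6.14 in the shPkm2-labelled libraries (SE 0.181, adjusted p 1.16e-11) and -4.99 between them (SE 0.178, adjusted p 1.28e-10). All 5 Mymx transcripts fell in the shPkm2-labelled libraries, by fitted values from -5.57 to -9.39 in a separate edgeR fit of 33433 transcripts, of which 17.2% were called. The transcript with the value of -9.39 had 0 counts in both of those libraries, so its size depends on the prior count. In shPkm1 the 5 transcripts had values from -0.67 to -1.86 and were not called in that fit (adjusted p 0.0562 to 0.557). Mymk RNA exceeded Mymx RNA by 5.67 and 6.13 times in shScr, 4.99 and 4.87 times in shPkm1 and 2.94 and 2.27 times in the shPkm2-labelled libraries. The ratio thus fell along with the level in the last group.

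Of the classical cadherins, which bind the same cadherin on the neighbouring cell, M-cadherin (Cdh15) and N-cadherin (Cdh2) were both lower than in shScr, and the fall of Cdh2 in the shPkm2-labelled libraries rested on the scale. Cdh15 (chromosome 8, 122848374 to 122867397, plus strand) was at 312 and 404 TPM in shScr, 291 and 308 in shPkm1, and 189 and 174 in the shPkm2-labelled libraries. On this scale shPkm1 lay under the control pair without overlap by a margin smaller than the spread of that pair, and the last group lay clear of both. Cdh15 changed by a log2 fold of -0.64 in shPkm1 (SE 0.113, adjusted p 0.000294) and by -1.43 in the shPkm2-labelled libraries (SE 0.115, adjusted p 1.57e-07). Between the hairpin groups it was -0.79 (SE 0.114, adjusted p 6.09e-05). On log2(TPM + 1) with limma, the value in shPkm1 was -0.24 and not called (adjusted p 0.104).

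Cdh2 was at 57.9 and 70.1 TPM in shScr, 49.8 and 46.1 in shPkm1, and 64.6 and 55.6 in the shPkm2-labelled libraries. In TPM the last group overlapped the control pair and shPkm1 lay below both. After scaling of the counts it was at 215 and 231 CPM (counts scaled to library size) in shScr, 129 and 127 in shPkm1, and 161 and 146 in the shPkm2-labelled libraries, with no overlap. Cdh2 changed by a log2 fold of -0.80 in shPkm1 (SE 0.0993, adjusted p 1.35e-05) and by -0.54 in the shPkm2-labelled libraries (SE 0.0986, adjusted p 0.000276). The latter was -0.22 with library totals (adjusted p 0.0891) and -0.09 on log2(TPM + 1) (adjusted p 0.552). Cdh2 was 0.26 higher in the shPkm2-labelled libraries than in shPkm1 (SE 0.0989, adjusted p 0.0397), a call lost without any 1 of the 4 libraries compared, with values from 0.18 to 0.32. Cdh15 exceeded Cdh2 by 5.38 and 5.76 times in shScr, 5.85 and 6.68 times in shPkm1 and 2.93 and 3.12 times in the shPkm2-labelled libraries, so the cadherins drew closer in level in that group.

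Cdon, an immunoglobulin-family receptor that gathers with cadherins and signals toward muscle gene expression, was not called lower in any comparison. Cdon (chromosome 9, 35421528 to 35507652, plus strand) was at 24.7 and 31.0 TPM in shScr, 47.3 and 41.6 in shPkm1, and 43.3 and 38.8 in the shPkm2-labelled libraries. In TPM both hairpin groups lay above the control pair. In scaled counts it was at 139 and 155 CPM, 185 and 173 CPM, and 162 and 154 CPM, so that the last group met the controls. The log2 fold change was 0.28 in shPkm1 (SE 0.1, adjusted p 0.0249), a call lost without control library 1 (0.21, adjusted p 0.0899), without shPkm1 library 1 (0.25, adjusted p 0.147) and without shPkm1 library 2 (0.34, adjusted p 0.0526). In the shPkm2-labelled libraries it was 0.10 (95% interval -0.11 to 0.32, adjusted p 0.372), and 0.43 and called with library totals. Between the hairpin groups the interval ran from -0.39 to 0.04 (adjusted p 0.148).

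The junctional adhesion molecules, immunoglobulin-family proteins that bind across cell contacts and have been tied to myoblast fusion, went apart. Jam3 (chromosome 9, 27097384 to 27155421, minus strand) was at 49.4 and 51.2 TPM in shScr, 12.9 and 13.6 in shPkm1, and 17.3 and 16.0 in the shPkm2-labelled libraries. Control libraries were far above both hairpin groups, which lay close together. Jam3 changed by a log2 fold of -2.31 in shPkm1 (SE 0.112, adjusted p 2.81e-09) and by -2.05 in the shPkm2-labelled libraries (SE 0.109, adjusted p 2.61e-09). Among all genes, 2.57% had a lower fold change than Jam3 in shPkm1 and 6.27% in the shPkm2-labelled libraries. Between the hairpin groups the difference was 0.26 (95% interval 0.01 to 0.51, adjusted p 0.0748), and 0.39 and called with library totals. Gm48796 is annotated on the opposite strand of Jam3, and no source used here says whether reads were counted by strand.

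Jam2 (chromosome 16, 84774123 to 84826380, plus strand), a binding partner of Jam3, was at 17.2 and 20.2 TPM in shScr, 32.2 and 30.3 in shPkm1, and 25.3 and 23.4 in the shPkm2-labelled libraries. In TPM the groups did not overlap and shPkm1 was highest. In scaled counts it was at 63.7 and 66.3 CPM, 83.1 and 82.7 CPM, and 62.1 and 61.2 CPM. The log2 fold change was 0.35 in shPkm1 (SE 0.0924, adjusted p 0.00492) and -0.43 between the shPkm2-labelled libraries and shPkm1 (SE 0.092, adjusted p 0.00157). In the shPkm2-labelled libraries against shScr it was -0.08 (95% interval -0.28 to 0.12, adjusted p 0.477). The sign of that value turned with the scale, to 0.25 with library totals (adjusted p 0.0456) and 0.37 on log2(TPM + 1) (adjusted p 0.021).

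Cav3, the caveolin of muscle fibres, fell in every comparison. Cav3 (chromosome 6, 112459505 to 112472872, plus strand) was at 68.9 and 34.25 TPM in shScr, 14.8 and 14.9 in shPkm1, and 0.08 and 0.48 in the shPkm2-labelled libraries. The control libraries were far apart, and shPkm1 lay under both. Behind these levels stood 921 and 452 counts, 164 and 183 counts, and 1 and 6 counts. Cav3 passed the filter through the other groups, and in the shPkm2-labelled libraries it was near the floor of 3 counts per library. The pooled counts gave a level 247 times lower in the shPkm2-labelled libraries than in shScr, with an exact 95% counting interval from 120 to 616, and 54.3 times lower than in shPkm1 (26.1 to 136). The interval covers counting error only. The log2 fold change in shPkm1 was -2.22 (SE 0.295, adjusted p 2.63e-05), and -1.505 without control library 1. In the transcript fit, the only Cav3 transcript had -2.18 in shPkm1 (SE 0.583, adjusted p 0.0911) and was not called. The fitted values were -7.92 in the shPkm2-labelled libraries against shScr (SE 0.529, adjusted p 2.42e-08) and -5.71 against shPkm1 (SE 0.633, adjusted p 5.93e-06). They moved to -7.21 without control library 1 in the first of these, to -7.15 and -4.95 without shPkm2 library 1, and to -9.60 and -7.39 without shPkm2 library 2.

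The ferlins parted in the shPkm2-labelled libraries, where RNA of dysferlin (Dysf) fell and that of myoferlin (Myof) rose. Dysf (chromosome 6, 84008361 to 84211060, plus strand) was at 11.5 and 8.52 TPM in shScr, 15.3 and 16.1 in shPkm1, and 0.91 and 0.76 in the shPkm2-labelled libraries. The groups did not overlap in TPM, with shPkm1 highest. In scaled counts control library 1, at 60.0 CPM, lay between the shPkm1 libraries at 56.2 and 62.7 CPM, and control library 2 stood at 39.6 CPM. The log2 fold change in shPkm1 was 0.26 (95% interval -0.07 to 0.59, adjusted p 0.156). It was 0.46 and called with library totals (adjusted p 0.0123), and 0.61 and called with limma on log2(TPM + 1) (adjusted p 0.00591). It was 0.59 and called without control library 1 and -0.01 without control library 2. In the shPkm2-labelled libraries it was -4.10 against shScr (SE 0.204, adjusted p 1.39e-09) and -4.36 against shPkm1 (SE 0.203, adjusted p 1.29e-09). Over the 9 alternatives that left out no library of the groups compared, these ran from -4.11 to -2.57 and from -4.37 to -3.19. The call was kept in each. Gm15475 and Gm33024 overlap Dysf on the opposite strand. Of 25 Dysf transcripts in the table, 12 to 16 had at least 1 count in each shScr and shPkm1 library, and 5 or 6 in the shPkm2-labelled libraries. The latter held 63 and 59 Dysf counts in all, against 701 to 1241 in each other library. A loss of single transcripts therefore cannot be read from these numbers.

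Myof (chromosome 19, 37899036 to 38043577, minus strand), a ferlin of myoblasts, was at 39.3 and 49.9 TPM in shScr, 68.5 and 64.4 in shPkm1, and 95.8 and 82.3 in the shPkm2-labelled libraries. The 3 groups rose in this order without overlap. Myof rose by 0.55 on the log2 scale in the shPkm2-labelled libraries (SE 0.105, adjusted p 0.000389). In shPkm1 it was 0.20 (95% interval -0.03 to 0.42, adjusted p 0.119), 0.39 and called with library totals, and 0.29 and called without control library 2 (adjusted p 0.0204). The difference of 0.36 between the hairpin groups (SE 0.105, adjusted p 0.0111) was not called without shPkm1 library 1 (0.35, adjusted p 0.0809), shPkm1 library 2 (0.36, adjusted p 0.076) or shPkm2 library 1 (0.28, adjusted p 0.143). Myof exceeded Dysf by 3.41 and 5.86 times in shScr, 4.47 and 4.002 times in shPkm1, and 105 and 108 times in the shPkm2-labelled libraries.

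The rise of Myof came with a change in which of its transcripts was counted. The curated transcripts NM_001302140.1 and NM_001099634.1 differ by 1 coding exon of 39 bases, the 17th of 54, at chr19:37969907-37969945 on the minus strand (GRCm38, GENCODE M21 transcripts), which adds 13 codons without shifting the frame. The exon is shown in capitals between the last 30 bases of the exon before it and the first 30 of the exon after it, 5′ to 3′, since it is what separates the transcript that rose from the one that did not.
Myof with the exon: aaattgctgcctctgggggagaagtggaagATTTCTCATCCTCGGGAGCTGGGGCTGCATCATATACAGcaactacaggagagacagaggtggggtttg
Myof without the exon: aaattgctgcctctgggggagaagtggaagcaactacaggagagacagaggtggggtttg

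The transcript with the exon was at 6.70 and 8.48 TPM in shScr, 25.3 and 29.4 in shPkm1, and 62.7 and 57.6 in the shPkm2-labelled libraries. The transcript without it was at 20.6 and 39.1 TPM in shScr, 43.2 and 34.8 in shPkm1, and 27.2 and 22.4 in the shPkm2-labelled libraries. The first rose from group to group without overlap, whereas the second overlapped between shScr and each hairpin group. In the transcript fit, the form with the exon was higher by 1.5025 in shPkm1 (SE 0.136, adjusted p 0.00857) and by 2.57 in the shPkm2-labelled libraries (SE 0.14, adjusted p 0.00149), and by 1.06 between them (SE 0.133, adjusted p 0.0174). The form without it had values of 0.04, -0.68 and -0.72 (adjusted p 0.966, 0.195 and 0.236). Of 39 tested transcripts of the 10 genes, 6 were called in shPkm1 (10.8% of all transcripts), 15 in the shPkm2-labelled libraries (17.2% of all) and 12 in the direct comparison (7.91% of all). Leaving out 1 library gave 1 to 5 calls in shPkm1, with 1 without either shPkm1 library. In the direct comparison it gave 3 to 10, with 3 without either shPkm1 library and 4 without either shPkm2 library.

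Within the curated pair, the exon was present in 24.6% and 17.8% of TPM in shScr, 37.0% and 45.8% in shPkm1, and 69.8% and 72.0% in the shPkm2-labelled libraries. Group means were 21.2% ± 4.78, 41.4% ± 6.25 and 70.9% ± 1.56 (SD, n = 2). A further 2 predicted Myof transcripts held 30.6% of Myof TPM in control library 1 and less elsewhere. Counting all of them as carrying the exon or all as lacking it put control library 1 between 17.04% and 47.7%, which spans the shPkm1 values, and control library 2 between 16.99% and 21.6%. The libraries labelled shPkm2 stayed between 65.5% and 72.8% and above all others under either choice. The rise in shPkm1 was not called without shPkm1 library 1 (1.65, adjusted p 0.0524) or library 2 (1.32, adjusted p 0.0522), and the direct difference was not called without any 1 of the 4 libraries compared (0.92 to 1.25). The rise in the shPkm2-labelled libraries was called in each of these fits. The form without the exon reached -1.01 in the shPkm2-labelled libraries without control library 1 (adjusted p 0.0363). These transcripts share almost all of their sequence, so the authors' division of reads common to both sets their levels.

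**Figure D3:**
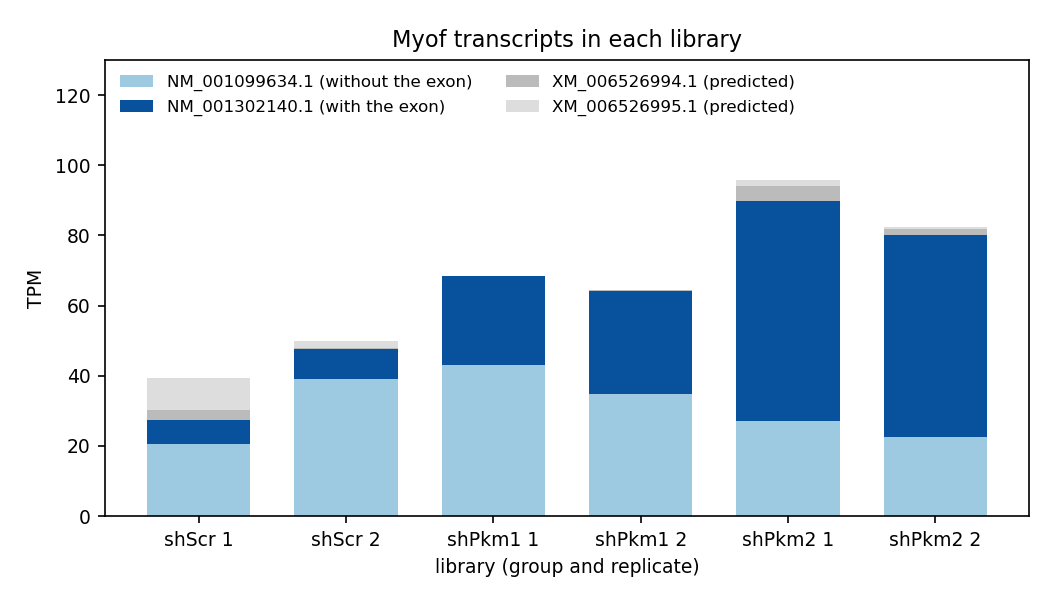
Stacked TPM of the 4 Myof transcripts in each library, 2 libraries per group; the height of a bar is the Myof total. The dark segment, the transcript with the 39-base exon, grows from 6.70 and 8.48 TPM in shScr to 62.7 and 57.6 in the shPkm2-labelled libraries.

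The order of the genes by length-scaled level changed between groups. In shScr the order of mean TPM was Mymk (2598 ± 45.7, SD, n = 2), Mymx (442 ± 32.1), Cdh15 (358 ± 65.3), then Cdh2, Cav3, Jam3 and Myof between 64.0 and 44.6, and Cdon (27.8), Jam2 (18.7) and Dysf (10.0). Each neighbouring pair from Cdh2 to Myof overlapped in its libraries and was not told apart by level. In shPkm1 Cdh15 passed Mymx and Myof passed Cdh2, and Jam3 came last at 13.3 TPM. In the shPkm2-labelled libraries Cdh15 was first (181), followed by Myof (89.1), Cdh2 (60.1), Cdon (41.0) and Jam2 (24.4), with Mymk sixth (21.8), Jam3 at 16.7, Mymx at 8.55, Dysf at 0.835 and Cav3 at 0.28.

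Upstream sequence was examined for the members that RefSeq promoter windows covered, 5 of the 10 genes with 6 windows (GRCm38.p6). Basic helix-loop-helix factors such as Myod1 and Myog bind the E-box, written CANNTG, and CAGCTG is a form that muscle factors favour. In the 250 bases before the start that RefSeq gives, Cav3 held 2 E-boxes, one of them the favoured form, Cdh15 held 3 of other forms, and the windows of Cdon, Myof and both Dysf starts held none. The Cdon window (chr9:35451826-35452075) lies inside the span of the gene given above, before an internal start, and the Dysf windows lie wholly or almost wholly inside the span of Dysf. The E-box pattern reads alike on both strands, so each match was counted once. Of all 32851 windows of that length 66.2% hold a CANNTG and 13.0% a CAGCTG, which is one of the CANNTG forms, so a match describes the window only. The windows of Cav3 (chr6:112459255-112459504, plus strand) and Cdh15 (chr8:122848124-122848373, plus strand) are shown with the matches in capitals, as the fallen genes with a match, beside the Dysf window at its downstream start (chr6:84019136-84019385, plus strand), which belongs to a fallen gene without one.
Cav3 upstream window: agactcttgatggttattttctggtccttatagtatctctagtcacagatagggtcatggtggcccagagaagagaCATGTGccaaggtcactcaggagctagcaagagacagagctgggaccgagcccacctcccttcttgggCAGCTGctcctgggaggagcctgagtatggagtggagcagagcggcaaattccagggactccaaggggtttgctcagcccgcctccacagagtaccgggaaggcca
Cdh15 upstream window: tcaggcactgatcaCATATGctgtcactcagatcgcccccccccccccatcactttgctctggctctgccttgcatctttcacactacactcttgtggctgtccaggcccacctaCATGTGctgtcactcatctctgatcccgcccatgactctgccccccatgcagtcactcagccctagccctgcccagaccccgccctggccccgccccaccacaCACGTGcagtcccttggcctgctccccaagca
Dysf upstream window: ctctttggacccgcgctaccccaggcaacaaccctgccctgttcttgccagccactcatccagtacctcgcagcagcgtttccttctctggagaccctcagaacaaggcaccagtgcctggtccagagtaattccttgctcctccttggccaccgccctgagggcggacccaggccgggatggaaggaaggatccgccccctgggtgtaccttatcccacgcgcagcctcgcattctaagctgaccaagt

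A pair of curated Dysf transcripts begins at that downstream start (84019386 and 84019389) and NM_001077694.2 further upstream (84008702). Counts of NM_001077694.2 were 51.5 and 97.96 in shScr, 107 and 83.7 in shPkm1, and 13.99 and 0 in the shPkm2-labelled libraries. The 3 curated transcripts together held 255 and 246 counts in shScr, 252 and 252 in shPkm1, and 15.8 and 18.05 in the shPkm2-labelled libraries. These are counts before scaling, out of 947 and 701, 1056 and 1241, and 63 and 59 Dysf counts in all, and they were lowest in the last group. The split between starts varied between replicates by more than the groups did and is not interpreted.

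Of the muscle transcription factors among the markers, Myod1 and Myog were lower where the fusion genes were lower, and Myf5 was higher. Myod1, which opens the muscle programme, was at 294 and 306 TPM in shScr, 214 and 209 in shPkm1, and 84.3 and 91.7 in the shPkm2-labelled libraries. Myog, which acts later in differentiation, was at 2126 and 2051, 1429.8 and 1437, and 67.2 and 73.5 TPM. Myf5, a factor of early myoblasts, was at 11.6 and 13.4, 20.8 and 18.2, and 59.4 and 54.2 TPM. Whether these factors account for the levels of the fusion genes was not tested.

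Other genes of fusion and adhesion were read from 7 lists that do not include the 10 genes. Beside every count of a list stand the shares of all genes called: 31.8% higher and 31.4% lower in shPkm1, 33.9% and 34.2% in the shPkm2-labelled libraries, and 25.7% and 27.3% between them. The surface proteins around fusion moved in both directions. Of 22 listed and 17 tested, 7 rose and 8 fell in shPkm1, 8 rose and 8 fell in the shPkm2-labelled libraries, and 4 rose and 6 fell between them, with medians of 0.02, -0.05 and -0.14. Tmem182, a muscle membrane protein, was at 81.3 and 67.6 TPM in shScr, 45.9 and 42.8 in shPkm1, and 0.86 and 0.91 in the shPkm2-labelled libraries. Its log2 fold changes were -1.16, -6.91 and -5.76 (adjusted p 5.8e-06 or less). Vcam1, an adhesion protein, rose by 1.14 and 1.67, and was 0.53 higher in the shPkm2-labelled libraries than in shPkm1. The tetraspanin Cd9 rose by 1.00 in shPkm1 and 1.43 in the shPkm2-labelled libraries. The neural cell adhesion molecule Ncam1 fell by 0.92 and 2.92 on the log2 scale, and Cd164, a sialomucin, by 1.21 and 1.34.

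Genes that remodel actin at the fusion site moved in both directions. All 29 were tested, with 10 higher and 6 lower in shPkm1 (median 0.05), 15 higher and 7 lower in the shPkm2-labelled libraries (median 0.32), and 12 higher and 6 lower between them (median 0.19). Elmo1 is a partner of the Dock exchange factors that activate Rac. It was at 0.28 and 0.37 TPM in shScr, 5.23 and 4.72 in shPkm1, and 0.18 and 0.20 in the shPkm2-labelled libraries. Behind these levels stood 13 and 16 counts in shScr, 195 and 199 in shPkm1, and 7 and 8 in the shPkm2-labelled libraries. Elmo1 reached the mean count needed to be named here only through shPkm1, and the other groups held few counts. It rose by 3.55 in shPkm1 (SE 0.243, adjusted p 6.85e-08), and its fall of 1.27 on the log2 scale in the other group (adjusted p 0.0108) was not called without control library 2 or shPkm2 library 1. Dock5, one of those exchange factors, rose by 0.67 in shPkm1 and by 1.75 in the shPkm2-labelled libraries.

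Around the cadherins, 2 of 8 tested genes rose and 3 fell in shPkm1 (median -0.24), 1 rose and 3 fell in the shPkm2-labelled libraries (median -0.18), and 1 rose and 2 fell between them (median 0.22), beside 31.4%, 34.2% and 27.3% of all genes lower. Cdh11, a cadherin of mesenchymal cells, was at 6.74 and 6.10 TPM in shScr, 22.9 and 19.9 in shPkm1, and 7.91 and 7.04 in the shPkm2-labelled libraries. It rose by 1.32 in shPkm1 (adjusted p 9.19e-07) and was lower by -1.58 in the shPkm2-labelled libraries than there. Of the fibroblast markers, Col1a1 and Dcn were also highest in shPkm1 and Pdgfra was not. Cdh13 rose by 0.56 in shPkm1 and fell by 1.00 on the log2 scale in the shPkm2-labelled libraries. Ctnnb1, the beta-catenin that cadherins bind, had a rise of 0.30 in the shPkm2-labelled libraries (adjusted p 0.0197) that was not called without control library 1, shPkm2 library 1 or shPkm2 library 2.

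Of 10 tested partners of Cdon, beside 31.8%, 33.9% and 25.7% of all genes higher, 5 rose and 2 fell in shPkm1 (median 0.20), 8 rose and 0 fell in the shPkm2-labelled libraries (median 0.58), and 4 rose and 1 fell between them (median 0.07). Ptch1, the Hedgehog receptor, was at 0.95 and 0.92 TPM in shScr, 7.28 and 6.60 in shPkm1, and 4.02 and 3.83 in the shPkm2-labelled libraries. It rose by 2.19 in shPkm1 (SE 0.156, adjusted p 9.93e-08) and by 1.32 in the shPkm2-labelled libraries (SE 0.162, adjusted p 8.94e-06). Gas1, a co-receptor of Hedgehog ligands, rose by 1.21 and 0.91. Ntn1, the ligand netrin-1, fell by 0.60 on the log2 scale in shPkm1 and was 1.24 higher in the shPkm2-labelled libraries than in shPkm1. Mapk14, the p38 kinase, fell by 0.36 on the log2 scale in shPkm1 (adjusted p 0.00882), a call lost without control library 1 or shPkm1 library 2 and with library totals (-0.16, adjusted p 0.19).

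Among junctional adhesion partners and nectins, 4 of 11 tested rose and 2 fell in shPkm1 (median -0.05), 5 rose and 4 fell in the shPkm2-labelled libraries (median 0.24), and 3 rose and 1 fell between them (median -0.03), beside 31.8%, 33.9% and 25.7% of all genes higher. F11r, the family member also called JAM-A, was at 19.5 and 17.4 TPM in shScr, 5.48 and 5.36 in shPkm1, and 5.33 and 4.94 in the shPkm2-labelled libraries. Its log2 fold changes of -2.16 and -2.31 (adjusted p 5.82e-08 and 1.37e-08) were close in size to those of Jam3, and the counts of control libraries enter both. Nectin3, an immunoglobulin-family adhesion protein, rose by 1.32 and 1.54, while Nectin2 fell by 0.65 and 0.87 on the log2 scale.

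Caveola genes moved in both directions. Of 10 tested, 4 rose and 4 fell in shPkm1 (median -0.17), 3 rose and 4 fell in the shPkm2-labelled libraries (median -0.13), and 0 rose and 7 fell between them (median -0.46), where 25.7% of all genes were higher and 27.3% lower. Cav1, the caveolin of most non-muscle cells, was at 16.7 and 17.3 TPM in shScr, 413 and 388 in shPkm1, and 60.5 and 58.9 in the shPkm2-labelled libraries. It rose by 4.17 (SE 0.11) and 1.33 (SE 0.103), with adjusted p 2.47e-11 and 1.09e-07, opposite in direction to Cav3. Its partner Cav2 rose by 2.71 and 1.68. Cavin4, the muscle cavin, fell by 0.73 and 3.01 on the log2 scale, and Pacsin3, a membrane-bending protein abundant in muscle, by 1.67 and 2.38.

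Genes around the ferlins in membrane repair were also divided. Of 19 listed and 15 tested, 7 rose and 6 fell in shPkm1 (median 0.12), 8 rose and 6 fell in the shPkm2-labelled libraries (median 0.31), and 3 rose and 6 fell between them (median -0.06), beside 31.4%, 34.2% and 27.3% of all genes lower. Trim72, the muscle repair protein MG53, was at 135 and 111 TPM in shScr, 41.4 and 41.2 in shPkm1, and 1.05 and 0.74 in the shPkm2-labelled libraries. Its log2 fold changes were -1.96, -7.47 and -5.51 (adjusted p 7.84e-08 or less). Bin1, which shapes the tubules of muscle fibres, fell by 1.18 and 2.32 on the log2 scale. Anxa1, a calcium-dependent membrane-binding annexin, rose by 0.49 in shPkm1 and by 2.11 in the shPkm2-labelled libraries, with 1.62 between them, and S100a10, an annexin partner, rose by 0.67 and 1.18. Ahnak and Capn2, which have been tied to the dysferlin complex and to calcium-driven proteolysis, rose by 1.01 and 0.86 in shPkm1 and by 0.95 and 0.57 in the shPkm2-labelled libraries.

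**Figure D4:**
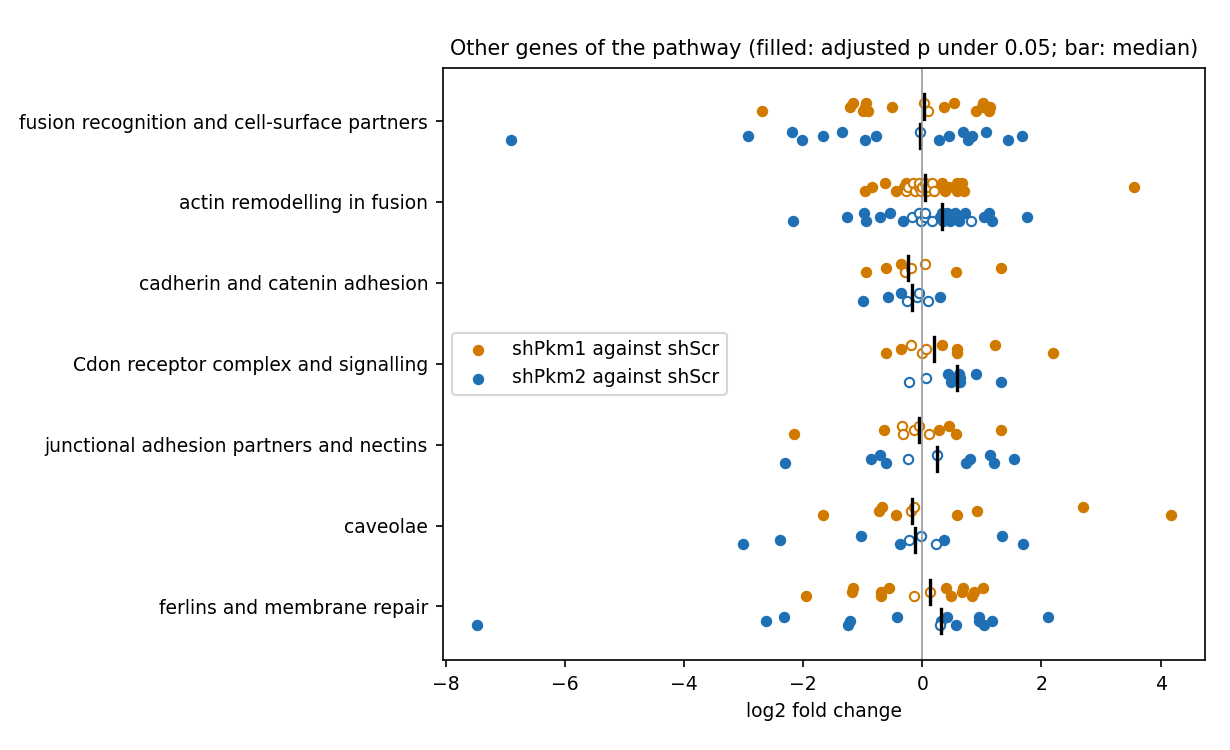
Log2 fold changes against shScr of the tested genes of the 7 lists, shPkm1 in orange and the shPkm2-labelled libraries in blue; filled points have an adjusted p under 0.05, and black bars are list medians. The points of every list lie on both sides of 0 for shPkm1, with Cav1 at 4.17 and Elmo1 at 3.55 farthest right and Trim72 at -7.47 (shPkm2) farthest left.

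The genes whose pattern over the 6 libraries lay nearest to each member were found by the root mean square difference of log2 CPM, centred on each gene's own mean. For Mymk they were Tnnc1, a troponin (0.162), and Myl1, a myosin light chain (0.184), while Mymx, the closest of the set, was at 0.539. Mymx was nearest to Prkag3 (0.219) and Rap1gap2 (0.222). Cav3 was nearest to the muscle kinase gene Srpk3 (0.264) and the muscle phosphoglycerate mutase Pgam2 (0.273), and Dysf to Lmod1 (0.136) and Sema3g (0.251). For Jam3 they were Irf9, an interferon-response factor (0.0977), and Slc37a2 (0.114). Members that varied little had closer neighbours: Cdh15 with Lsp1 (0.0557) and Gpc1 (0.0721), Cdh2 with Cyth2 (0.0447) and Cirbp (0.0515), and Cdon with Fosl2 (0.0222) and Cdyl (0.0364). Jam2 was nearest to Sel1l (0.0187) and Mea1 (0.0312), and Myof to Zscan29 (0.0222) and Glrb (0.0379).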

How the data were processed

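RNA abundance was read from 1 deposited table with 57920 RefSeq transcripts and 3 values per library. Per the file headers these are estimated counts, FPKM (deposited after scaling to length and depth) and TPM (deposited after scaling to length, with a fixed sum per library). The submitters' processing notes name HISAT, StringTie, Bowtie, RSEM and DESeq2 and the mm10 build, with no version or role; strand setting, read length and filters are not given in the sources used here. Another 9 columns of authors' means were not used. FPKM values were not tested.

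Estimated counts and TPM were summed per NCBI gene (17558 genes, 17445 with a symbol; the other 113 held at most 0.148% of a library). Counts were rounded, filtered with filterByExpr (minimum count 10, minimum total 15; 12643 genes left) and fitted in edgeR 4.0.16 (R 4.3.3) with TMM factors (0.856 to 1.12), 1 coefficient per group and all 6 libraries. Quasi-likelihood tests were two-sided, with Benjamini-Hochberg adjustment over all genes and a threshold of 0.05. Transcripts were fitted in the same way. Standard errors were derived from the fold change and its F statistic. On simulated counts for shPkm1 against shScr (12081 genes), 93 of 100 genes changed by a log2 of 1 were called, 37 of 100 at 0.5 and 1 of 11881 unchanged genes; 0 of 12081 were called for an unchanged shPkm2 group. Floors (3 counts) and counting intervals cover counting error only.

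The 10 genes, the 7 pathway lists and the marker lists (among them bone-forming, adipocyte, immune and neural cells) were chosen with earlier results of these data known. From each list and comparison, the 2 largest rises and falls among called genes averaging 50 counts or more could be named; the genes nearest to a member needed the same mean and a symbol that is no predicted or clone name. The values of 1 gene that this rule selects are not reported here. Myod1, Myog and Myf5 are markers, and Col1a1 and Des are named from those lists. Replicate numbers did not pair the samples. Alternatives were other scalings and filters, DESeq2 1.42.0, limma 3.58.1 on log2(TPM + 1) and log2(TPM + 0.1), fits of 2 groups at a time, a block for replicate number, and fits without each library. For transcripts, leaving out each library and library totals were added after the data had been seen. Promoter windows are from RefSeq (GRCm38.p6) and exon structures from GENCODE M21 (GRCm38). Figures were made with matplotlib 3.10.9 in Python 3.11.15.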

Additional observations from a re-analysis of the deposited data

How the results depend on the processing

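Each of the 30 fold changes (10 genes, 3 comparisons) was recomputed under 15 alternatives. Of 450 values, 411 kept direction and call, 19 lost the call, 16 gained one and 4 changed sign. Changed signs were those of Dysf in shPkm1 without control library 2 (-0.0121, adjusted p 0.931, in a range up to 0.59 over left-out libraries) and of Jam2 in the shPkm2-labelled libraries with library totals (0.25), limma on log2(TPM + 1) (0.37) and on log2(TPM + 0.1) (0.38). The number of genes higher than in shScr went from 2 to 4 in shPkm1 and from 1 to 3 in the shPkm2-labelled libraries with library totals and with limma on either TPM scale, and between the hairpin groups from 2 to 1 without a filter and with limma on log2(TPM + 1), and to 3 with library totals and with only the 4 libraries compared. The number lower than in shScr went from 6 to 5 in shPkm1 with limma on either TPM scale, and from 7 to 6 in the shPkm2-labelled libraries with library totals and with limma. Leaving out 1 library gave 1 to 3 genes higher in shPkm1 and 0 to 3 between the hairpin groups. A group left with 1 library was assumed to vary like the others. Among transcripts of the 10 genes, leaving out 1 library gave 1 to 5 called in shPkm1 and 3 to 10 between the hairpin groups, and the Myof transcript without the exon ran from -0.31 (without control library 1) to 0.49 in shPkm1, with -0.07 without shPkm1 library 1. A cause beyond the smaller number of libraries was not tested.

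The replicate numbers did not pair the libraries: deviations of same-numbered libraries correlated at -0.026, 0.042 and 0.053. With the replicate block, 1 gene was higher between the hairpin groups, because Cdh2 was at an adjusted p of 0.0542. In simulated counts with 2 libraries per group and 11881 of 12081 genes unchanged, 37 of 100 changes of 0.5 (log2) were called. In these data 63.1% of genes were called in shPkm1, so that share does not carry over. Jam2, for example, was called there at 0.35. How many changes of this size were missed was not tested.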

Other observations

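Markers of 2 other mesenchymal types were low but not even across groups. Runx2, a factor of bone-forming cells, was at 3.94 and 6.08 TPM in shScr, 16.7 and 13.5 in shPkm1, and 16.1 and 14.4 in the shPkm2-labelled libraries, while Sp7, which marks committed osteoblasts, was at 0.16 TPM or less. Cebpa, a factor of fat cells, was at 5.75 and 5.95, 17.3 and 18.5, and 19.4 and 16.4 TPM, while Adipoq and Plin1 were at 0.08 TPM or less. Immune markers summed to at most 3.62 TPM and neural markers to between 15.8 and 34.8, nearly all of it Tubb3, with Sox10 at 0. These levels were not tested between groups.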
